A study of Mus musculus with 24 samples.

Results

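The loss of Vhl can be read in B lineage cells at an early and at a late stage of their development, and the subject here is how far its effect on each gene differs between the stages. The value is a difference of 2 genotype effects: the log2 change between flox/flox and flox/WT mice in mature B cells, minus the same change in pro-B and pre-B cells, sorted together and labelled proBpreB. It rests on 16 of the 24 libraries of the series, 1 proBpreB and 1 mature library from each of 8 mice, and covers all 12850 genes with enough counts to test. A positive difference means that the flox/flox libraries stood higher against their controls in mature than in proBpreB cells, either because the gene rose more or because it fell less.

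All cells came from mouse bone marrow, and all 8 mice carried 1 copy of Mb1-Cre (Mb1 Cre +/WT), a recombinase expressed from the Cd79a locus in the B lineage. In 4 mice both Vhl alleles were floxed (VHL flox/flox), and in the other 4, the controls, 1 allele was floxed and 1 was wild type (VHL flox/WT). The controls therefore carried the recombinase and could lose 1 Vhl copy, and the design holds no mouse without either. The sources used here do not give ages, sexes, sorting gates, the place of the lox sites or the share of recombined cells. The 8 immature B cell libraries of the same mice entered the fit and are set beside the results where named. In sorted bulk RNA, fewer cells of a kind in a sort and less RNA per cell cannot be told apart.

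VHL is the substrate-recognition subunit of a ubiquitin ligase that binds the alpha subunits of hypoxia-inducible factor (HIF) once prolyl hydroxylases of the EGLN family have modified them in the presence of oxygen. Without VHL the alpha subunits escape degradation, pair with ARNT and bind hypoxia response elements, raising genes of glucose use, mitophagy, angiogenesis and the hydroxylases themselves. Pro-B and pre-B cells rearrange the immunoglobulin genes and divide under interleukin-7 and pre-B cell receptor signals, whereas mature B cells mostly rest and carry CD20, CD23 and the homing receptor CCR7.

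The 16 libraries held 8458523 to 11741511 counts, so that 3 counts in a library corresponded to 0.256 to 0.355 CPM (counts scaled to the TMM-adjusted library total). Sorted identity was checked with stage genes. Rag1, which encodes a subunit of the V(D)J recombinase, averaged 267 CPM in proBpreB and 5.29 CPM in mature flox/WT libraries. Fcer2a, which encodes CD23, averaged 12.8 and 1740 CPM. Markers of other cells were present as well: the summed level of 13 erythroid genes ran from 7830 to 21200 CPM in mature flox/flox and from 3840 to 10800 CPM in mature flox/WT libraries, and that of 14 neutrophil and monocyte genes from 13500 to 21800 and from 12300 to 19200 CPM. In proBpreB cells the erythroid sums were 2230 to 3970 and 1670 to 3570 CPM, and the neutrophil and monocyte sums 4530 to 5690 and 4310 to 6440 CPM. None of the markers on these lists was at 0 in any of the 4 groups. No member of either list passed the test of the difference. Within mature cells, 3 of the 13 erythroid genes rose in flox/flox mice, with 9.69% of all tested genes rising there. None of the 14 neutrophil and monocyte genes did, and no member of either list was called in proBpreB cells. The part of such cells in the results was not tested.

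Vhl itself, on chromosome 6 at 113623994 to 113631634 (GRCm38), read 25.8, 24.7, 23.0 and 27.9 CPM in the proBpreB flox/WT libraries of mice 1 to 4 and 7.97, 15.1, 9.26 and 8.25 CPM in the proBpreB flox/flox libraries. The mature flox/WT libraries gave 30.5, 26.3, 27.4 and 32.4 CPM and the mature flox/flox libraries 8.37, 9.79, 5.39 and 6.85 CPM. Every flox/flox library lay below every flox/WT library of its population. The genotype effect was a log2 change of -1.32 (SE 0.23) in proBpreB and -1.94 (SE 0.24) in mature cells. Their difference, -0.62 with a 95% interval of -1.29 to 0.05, did not pass the edgeR test (adjusted p = 0.394). Taken mouse by mouse, the step from proBpreB to mature cells averaged -0.38 in flox/flox and 0.20 in flox/WT mice without overlap, as the steps of 10.8% of all genes did. The exact permutation test gave its smallest possible p for that value (two-sided, p = 0.0286). Reads from outside the floxed stretch would not report its loss, so the residual level is not a measure of recombination.

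The genotype effect differed between mature and proBpreB cells for 393 of the 12850 genes, 3.06% of those tested (edgeR quasi-likelihood test, Benjamini-Hochberg adjusted p below 0.05; such genes are called here). The difference was higher in mature cells for 292 genes (2.27%) and lower for 101 (0.786%), while the median over all genes was 0.03. Among the 292, 183 rose in mature cells and were not called in proBpreB cells, 40 rose in both populations, 40 fell in proBpreB cells and were not called in mature cells, and 16 rose in mature and fell in proBpreB cells. The other 13 comprised 9 called in neither population and 4 that fell in both. Of the 101 lower genes, 64 fell in mature cells and were not called in proBpreB cells, 20 rose in proBpreB cells and were not called in mature cells, 6 rose in both, 2 fell in both and 9 were called in neither. A further 254 genes rose in both populations without a called difference. The effects themselves reached 2096 genes in mature cells (16.3%), of which 1245 rose (9.69%) and 851 fell (6.62%), and 788 in proBpreB cells (6.13%), of which 434 rose (3.38%) and 354 fell (2.75%). The step from proBpreB to mature cells, which shares these libraries, was called for 7550 genes in flox/WT (58.8%) and 7599 in flox/flox mice (59.1%). The count of lower genes was sensitive to single mice and 1 library. It was 65 without proBpreB flox/flox replicate 2 and 64, 55 and 57 without flox/flox mice 1, 3 and 4, and it was 56 and 60 without flox/WT mice 2 and 4. The total was 261, 255 and 254 without flox/flox mice 1, 3 and 4 and 255 without flox/WT mouse 4.

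**Figure D1:**
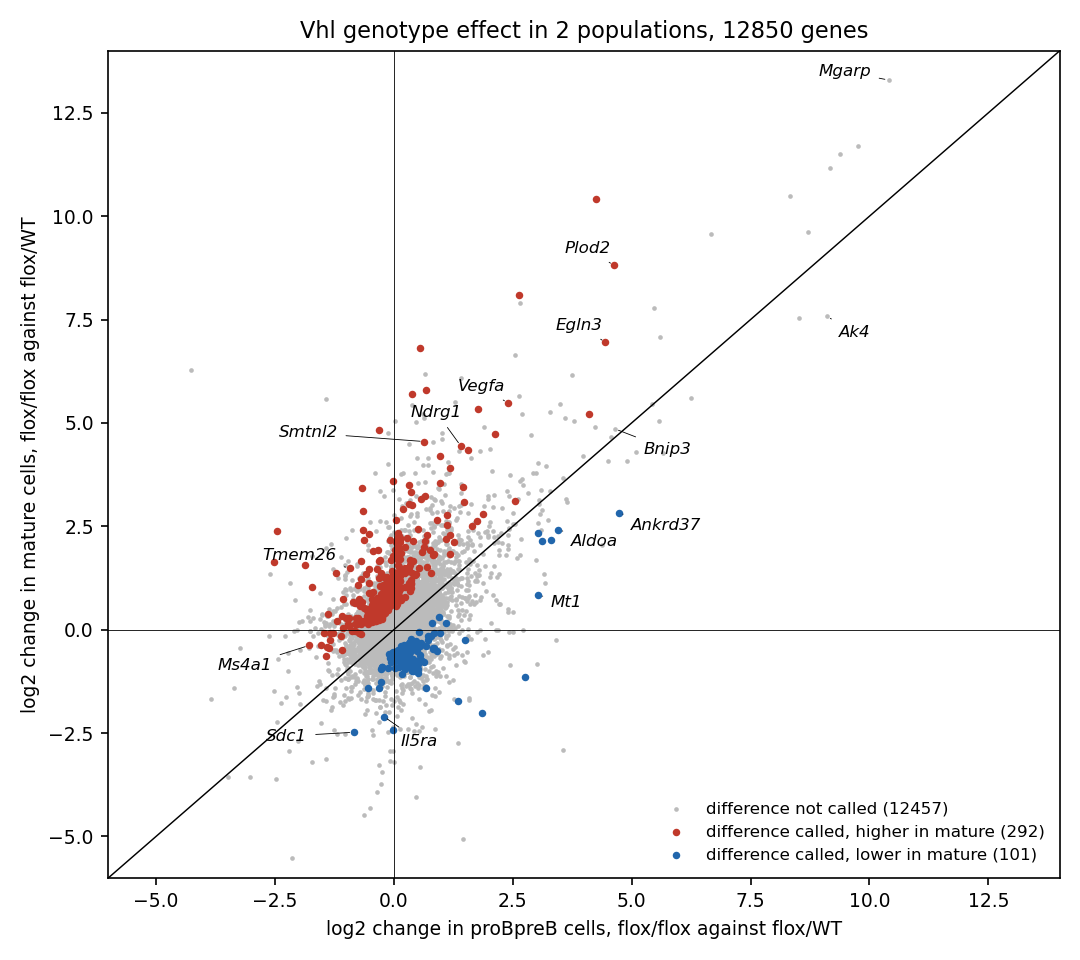
Each of 12850 genes is placed by its log2 change between flox/flox and flox/WT mice in proBpreB cells (horizontal) and in mature cells (vertical), with the line of equal effects drawn. The 292 genes with a called higher difference (red) lie above the line and the 101 lower ones (blue) below it, and the HIF targets at the upper right lie on both sides of it. Effects of genes with almost no counts in flox/WT libraries, such as Mgarp, depend on the prior count of the fit.

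Of 14 tested components of the HIF pathway itself, 1, Egln3, had a called difference between the stages, and the median difference was 0.13 against 0.03 over all genes. Of all tested genes, 3.06% had a called difference. Hif1a, which encodes the main HIF alpha subunit of lymphocytes, had effects of 0.10 in proBpreB and 0.13 in mature cells on the log2 scale, and Arnt, its partner, 0.07 and 0.13, none of them called. Egln1, the principal HIF hydroxylase, rose from 51.0 to 247 CPM in proBpreB and from 57.8 to 444 CPM in mature cells, and its difference of 0.67 missed the threshold (edgeR adjusted p = 0.0585). The 2 other alpha subunit genes were scarce, and their differences were large but imprecise. Epas1, which encodes HIF-2 alpha, averaged 0.333 and 0.64 CPM in proBpreB and 0.274 and 2.94 CPM in mature flox/WT and flox/flox cells. It rose in mature cells and was not called in proBpreB cells, and its difference of 2.49 (SE 1.06) was not called (edgeR adjusted p = 0.248). Hif3a, which encodes HIF-3 alpha and is itself a HIF target, had 4 counts in all in proBpreB and 3 in mature flox/WT libraries, against 59 and 250 counts in flox/flox libraries. It rose in both populations, and its ratio of counts in mature cells was 80.5 (exact 95% counting interval 27.2 to 393). The fitted difference of 2.40 (SE 1.58, edgeR adjusted p = 0.525) depends on the prior count.

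Egln3, an inducible HIF prolyl hydroxylase and a classical HIF target, lies on chromosome 12 at 54178981 to 54203874. It read 3.59, 4.93, 3.69 and 3.95 CPM in proBpreB flox/WT and 105, 85.7, 79.2 and 85.9 CPM in proBpreB flox/flox libraries. In mature cells it read 1.81, 0.88, 1.62 and 1.33 CPM in flox/WT and 190, 181, 150 and 184 CPM in flox/flox libraries. The mature flox/flox libraries were the highest and the mature flox/WT libraries the lowest of the 4 groups, with no overlap between any of them. The rise was 22.0-fold in proBpreB and 125-fold in mature cells, a log2 difference of 2.50 (SE 0.24, edgeR adjusted p = 2.04e-07).

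Among 39 other HIF targets, a list that also holds Egln3 and Egln1, 32 rose in proBpreB and 33 in mature cells, none fell in either, and the difference was called higher for 9 and lower for 1. Over all tested genes, 3.38% rose in proBpreB and 9.69% in mature cells, and 2.27% were called higher in the difference. The list's median difference was 0.43. The 9 were Plod2, Vegfa, Ndrg1, Adm, Rora, Egln3, Mxi1, Kdm4b and Bhlhe40, and all 9 rose in both populations. They therefore differed in the size of the rise and not in its direction.

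Ndrg1, a stress-responsive gene used as a hypoxia marker (chromosome 15, 66929318 to 66969641), gave the clearest case. In proBpreB cells it read 23.7, 22.2, 18.1 and 21.9 CPM in flox/WT and 59.8, 56.3, 54.2 and 58.4 CPM in flox/flox libraries. In mature cells the values were 12.4, 7.04, 8.96 and 10.7 CPM in flox/WT and 191, 208, 216 and 239 CPM in flox/flox libraries. The 4 groups did not overlap, and between proBpreB and mature cells the gene declined in flox/WT mice and climbed in flox/flox mice. It rose 2.66-fold in proBpreB and 21.9-fold in mature cells (log2 difference 3.03, SE 0.23, edgeR adjusted p = 1.22e-09).

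Vegfa, the angiogenic growth factor (chromosome 17, 46016993 to 46032377), stood lower in mature than in proBpreB controls, but higher in mature than in proBpreB flox/flox cells. The proBpreB libraries read 17.8, 15.4, 23.3 and 13.0 CPM in flox/WT and 104, 87.0, 87.3 and 88.4 CPM in flox/flox mice. The mature libraries read 4.70, 4.91, 0.995 and 1.14 CPM in flox/WT and 110, 129, 129 and 146 CPM in flox/flox mice. In flox/WT mice the mature level was 16.9% of the proBpreB level, whereas in flox/flox mice it was 140%. The rise was 5.28-fold in proBpreB and 43.7-fold in mature cells, a log2 difference of 3.08 (SE 0.35, edgeR adjusted p = 3.77e-06).

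Plod2, a lysyl hydroxylase of collagen (chromosome 9, 92539636 to 92608428), stood at 2.85, 3.70, 3.5 and 2.52 CPM in proBpreB flox/WT and at 82.7, 76.9, 75.2 and 79.5 CPM in proBpreB flox/flox libraries. In mature cells 3 flox/WT libraries held no count and the fourth 0.373 CPM, against 46.5, 42.3, 45.7 and 44.5 CPM in flox/flox libraries. The flox/flox level was thus lower in mature than in proBpreB cells, and the larger fold was against a control level near 0. Since the mature flox/WT group held 3 counts in all, the ratio of counts there was 519 with an exact 95% counting interval of 177 to 2520, and the fitted log2 difference of 4.18 depends on the prior count. The proBpreB rise was 25-fold.

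Adm and the circadian repressors differed from Plod2 in that their flox/flox level was far higher in mature cells. Adm, the vasodilator peptide adrenomedullin, measured 1.16 ± 0.397 CPM in flox/WT against 2.60 ± 0.568 CPM in flox/flox proBpreB cells, and 2.77 ± 1.28 and 41.1 ± 10.2 CPM in mature cells (SD, n = 4 each). Bhlhe41, a repressor of the circadian clock that is not on the list, measured 2.93 ± 0.889 and 5.77 ± 1.5 CPM in proBpreB and 5.98 ± 2.90 and 69.3 ± 20.2 CPM in mature cells. Its paralogue Bhlhe40 measured 6.02 ± 1.31 and 18.9 ± 1.68 CPM, then 20.9 ± 2.16 and 118 ± 7.76 CPM. The log2 differences were 2.72 (SE 0.41) for Adm, 2.58 (SE 0.41) for Bhlhe41 and 0.85 (SE 0.21) for Bhlhe40, all called. Mxi1, an antagonist of MYC, and Kdm4b, a histone demethylase, had smaller differences of 1.11 and 0.86. Rora, a nuclear receptor of the clock, was low throughout, rising from 0.913 to 3.99 CPM in proBpreB and from 0.312 to 8.78 CPM in mature cells.

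Ankrd37, a small ankyrin-repeat protein and direct HIF target (chromosome 8, 45996908 to 46000414), was the 1 listed target with a called lower difference. It read 3.68, 5.24, 5.71 and 8.09 CPM in proBpreB flox/WT and 154, 160, 149 and 140 CPM in proBpreB flox/flox libraries. The mature libraries gave 31.2, 30.2, 26.6 and 35.3 CPM in flox/WT and 216, 214, 213 and 232 CPM in flox/flox libraries. Its mature flox/flox level was the highest of the 4 groups, yet the mature controls also stood above the proBpreB controls, with no overlap. The rise was 26.5-fold in proBpreB and 7.09-fold in mature cells (log2 difference -1.90, SE 0.23, edgeR adjusted p = 6.28e-06).

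The other listed targets had no called difference, and the size of their rise was known with very unequal precision. Bnip3, a mitophagy receptor, read 39.2, 42, 46.3 and 53.3 CPM in proBpreB flox/WT and 1070, 1150, 1100 and 1190 CPM in flox/flox libraries, then 46.9, 48.4, 44.8 and 37.7 CPM and 1210, 1310, 1490 and 1170 CPM in mature cells. The 2 populations overlapped within each genotype. The difference was 0.23 with a 95% interval of -0.12 to 0.57. Ciart, a circadian repressor, rose 43.1-fold in proBpreB and 44.4-fold in mature cells, a difference of 0.02 with an interval of -0.70 to 0.74. For Slc16a3, which exports lactate, the interval of -0.94 to -0.09 lay below 0, but the difference did not pass the test over all genes (adjusted p = 0.219). Mgarp, a mitochondrial protein, had 0 counts in mature flox/WT libraries and was at least 1520-fold higher in mature flox/flox libraries, taking 3 counts over the group as the floor, so its difference could not be measured at this depth. Vldlr, a lipoprotein receptor, had 1 count in mature and 3 in proBpreB controls. Its ratios of counts were 3350 (exact 95% counting interval 601 to 132000) in mature and 689 (235 to 3340) in proBpreB cells. Ak4, a mitochondrial adenylate kinase, averaged 0.721 CPM in mature and 0.196 CPM in proBpreB controls, and the 95% interval of its difference was -2.72 to -0.34 (edgeR adjusted p = 0.177). Ak4 was called in 1 of 31 alternative settings.

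The promoters of 4 of these targets are shown because they stand for the outcomes just described: a larger rise in mature cells (Adm, Egln3), a rise whose difference was not called (Bnip3) and a smaller one (Ankrd37). Each line gives the 250 bases before the start used in the RefSeq promoter table (GRCm38.p6), 5′ to 3′ on the gene's strand. For Ankrd37 that start lies inside the gene span given above, so its stretch is not upstream of the whole span. Capitals mark the core of the hypoxia response element, ACGTG or GCGTG, on either strand, where neighbouring matches can overlap.
Adm: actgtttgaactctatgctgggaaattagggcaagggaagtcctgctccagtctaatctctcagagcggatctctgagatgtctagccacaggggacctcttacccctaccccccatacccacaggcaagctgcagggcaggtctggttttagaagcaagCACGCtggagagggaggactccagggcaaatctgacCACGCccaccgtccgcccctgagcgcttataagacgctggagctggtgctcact
Egln3: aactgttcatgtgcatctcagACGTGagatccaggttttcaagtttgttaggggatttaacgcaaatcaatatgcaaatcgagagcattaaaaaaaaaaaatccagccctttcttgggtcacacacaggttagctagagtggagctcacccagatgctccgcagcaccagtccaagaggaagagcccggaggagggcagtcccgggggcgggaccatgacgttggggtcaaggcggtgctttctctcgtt
Bnip3: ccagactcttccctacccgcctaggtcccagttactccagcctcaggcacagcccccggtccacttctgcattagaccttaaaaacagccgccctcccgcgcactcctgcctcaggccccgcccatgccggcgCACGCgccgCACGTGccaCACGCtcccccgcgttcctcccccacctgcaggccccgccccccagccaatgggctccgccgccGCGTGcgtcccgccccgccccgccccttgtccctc
Ankrd37: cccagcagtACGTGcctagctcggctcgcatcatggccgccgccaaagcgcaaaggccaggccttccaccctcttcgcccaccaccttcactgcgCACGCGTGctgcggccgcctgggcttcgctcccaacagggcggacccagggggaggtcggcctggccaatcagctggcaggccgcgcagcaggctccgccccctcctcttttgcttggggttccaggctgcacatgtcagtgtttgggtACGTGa

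The Adm stretch lies at chr7:110627407-110627656 on the plus strand and holds 2 matches. The Egln3 stretch, at chr12:54203875-54204124 on the minus strand, holds 1. The Bnip3 stretch, at chr7:138909507-138909756 on the minus strand, holds 5, and the Ankrd37 stretch, at chr8:45999851-46000100 on the minus strand, holds 4. Such a match stood in 38.6% of the 32851 promoter entries of the same length, counted entry by entry. Counted by gene, with a match in any of its entries, it stood in 60.4% of the 9706 tested genes that had an entry. These 2 shares are unlike measures, and the gene groups below use the count by gene. A match describes letters in this window and does not show binding, and no library here measured binding. Of the 16 genes that rose in mature and fell in proBpreB cells with a called difference, 14 had an entry and 7 of these a match (50%). Of the 6 that rose in both with a lower difference, 5 had an entry and all 5 a match. Neither of these small groups was tested against the background share. The other groups of called genes had entries for fewer than 80% of their members, and the shares of these groups are not given. The background of all tested genes also fell under that mark.

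Glycolysis genes rose at both stages, and the few called differences ran in both directions. Of 21 genes of glucose uptake and glycolysis, 20 rose in proBpreB and 20 in mature cells, with 3.38% and 9.69% of all tested genes rising there. The summed level of the list went from 2200 to 2880 CPM in flox/WT to 19400 to 23200 CPM in flox/flox proBpreB libraries, and from 3810 to 4870 to 22300 to 29100 CPM in mature ones. The difference was higher for Pfkfb3, Slc2a3 and Pfkp and lower for Aldoa, Eno1 and Slc2a1, and the list's median difference was -0.27. It was called higher for 2.27% and lower for 0.786% of all tested genes.

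Aldoa, the main aldolase (chromosome 7, 126795234 to 126800994), read 159, 142, 129 and 153 CPM in proBpreB flox/WT and 1790, 1570, 1460 and 1610 CPM in proBpreB flox/flox libraries. Mature libraries read 642, 678, 576 and 501 CPM in flox/WT and 3120, 3680, 2990 and 3080 CPM in flox/flox mice. Here too the groups did not overlap, and mature cells stood higher in both genotypes. The rise was 11.0-fold in proBpreB and 5.37-fold in mature cells (log2 difference -1.04, SE 0.15, edgeR adjusted p = 0.000113). Slc2a1, the glucose transporter GLUT1, had 18.4 ± 3.24 and 151 ± 12.7 CPM in proBpreB and 95.1 ± 11.7 and 485 ± 7.06 CPM in mature cells, a difference of -0.68 (SE 0.18). Eno1, an enolase, had a difference of -0.98 (SE 0.19), but it shares reads with the near-identical copy Eno1b (-1.13), so both values are uncertain. Of the 6 genes that rose in both populations with a lower difference, Map2k1, a kinase named here after its values were seen, was the remaining one.

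Pfkfb3, which makes the allosteric activator of phosphofructokinase, went the other way. It measured 40.6 ± 8.05 and 114 ± 6.10 CPM in proBpreB and 21.1 ± 2.07 and 181 ± 8.5 CPM in mature cells (flox/WT then flox/flox; SD, n = 4 each), a 2.80-fold and an 8.59-fold rise (log2 difference 1.62, SE 0.16). Pfkp, a phosphofructokinase, had a difference of 0.56 (SE 0.16), close to the threshold (edgeR adjusted p = 0.0473). Slc2a3, the transporter GLUT3, had a difference of 0.65 (SE 0.15), whose call was lost without flox/WT mouse 4 (edgeR adjusted p = 0.0588). Tpi1, Gapdh, Pgk1 and Pgam1, which carry out consecutive middle steps, had differences between 0.03 and 0.23, none of them called.

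**Figure D2:**
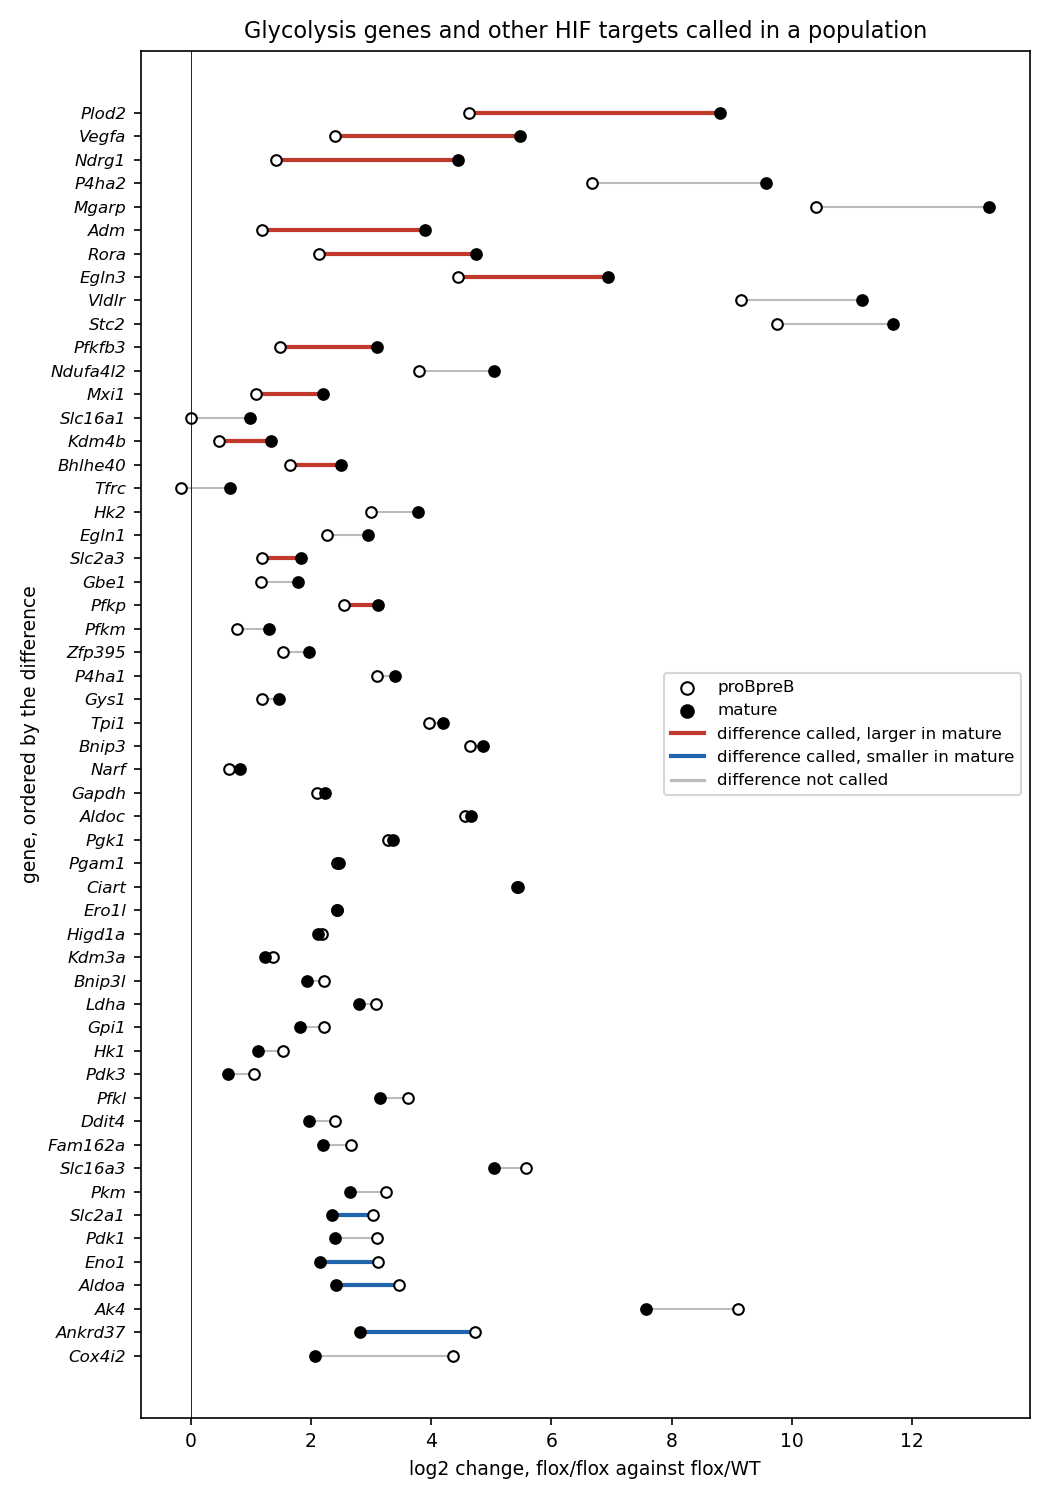
Rows are the 54 genes of the glycolysis list and the list of other HIF targets that were called in at least 1 population, ordered by the difference. Open circles give the log2 change between flox/flox and flox/WT mice in proBpreB cells and filled circles that in mature cells. Coloured bars join genes with a called difference: 12 are red, from Plod2 at the top, and 4 are blue, from Slc2a1 down to Ankrd37. The position of genes with almost no control counts (such as Plod2, P4ha2, Mgarp, Vldlr and Stc2) depends on the prior count.

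Outside the hypoxia lists, larger higher differences were found in genes that were lower in mature than in proBpreB cells of the controls, unlike Bhlhe41 above. Smtnl2, a smoothelin-like protein (chromosome 11, 72389163 to 72411713), read 94.9, 116, 138 and 102 CPM in proBpreB flox/WT and 201, 171, 151 and 182 CPM in proBpreB flox/flox libraries. Mature cells held 1.57, 3.40, 1.99 and 0.762 CPM in flox/WT and 36.3, 49.0, 42.9 and 47.4 CPM in flox/flox libraries. The flox/flox mice thus kept 24.9% of the proBpreB level in mature cells and the flox/WT mice 1.71%. The log2 difference was 3.90 (SE 0.36, edgeR adjusted p = 1.85e-07). The early effect, 0.64, was not called (edgeR adjusted p = 0.0561).

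Other genes were likewise lower in mature than in proBpreB cells of the controls, but their course in flox/flox mice varied. Adgrl2 and Sh3d19 were called as rising in both populations. Adgrl2, an adhesion receptor of the latrophilin family, was at 15.3% of its proBpreB level in mature flox/WT and at 142% in mature flox/flox cells (difference 3.20). Sorcs2, a sortilin-related receptor, was at 10.1% and 62.9% (2.61). P2rx3, an ATP-gated channel, stayed low in mature cells, at 0.240 and 2.00 CPM, with a difference of 2.73. With a pseudocount of 2 CPM in place of 0.5, its mouse-by-mouse steps overlapped between the genotypes. Sh3d19, an adaptor protein, rose in both populations, 2.98-fold in proBpreB and 20.4-fold in mature cells (2.78). Lrrn3 had 0.324 and 1.90 CPM in mature cells, and its difference of 2.84 lost its call in 19 of 31 alternative settings, with adjusted p-values up to 0.148 and 0.063 with the mouse as a random block in limma-voom.

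The clustered protocadherins, cell adhesion genes whose alternative first exons splice to shared constant exons, supplied 25 of the 292 higher symbols. All 25 tested symbols of the alpha and gamma cluster were called, with differences of 1.58 to 2.25. Counts of these symbols share exons, so they are not separate observations. Counted as 1 gene, the higher genes numbered 268 and all called genes 369. Pcdhgc3 stood for the group, with 20.7 ± 1.25 and 22.6 ± 2.19 CPM in proBpreB flox/WT and flox/flox cells and 1.15 ± 0.391 and 4.93 ± 0.917 CPM in mature cells. It was named after its values were seen.

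Of 24 genes of the surrogate light chain, recombination and the progenitor stage, 3 had a called higher difference (Lef1, Rag2 and Myb), none a lower one, and the median was 0.66. Among all tested genes, 2.27% were called higher and 0.786% lower. In mature cells 6 of the 24 rose, with 9.69% of all tested genes rising there, and none fell. In proBpreB cells none was called. Lef1, a transcription factor of the Wnt pathway (chromosome 3, 131110297 to 131224357), read 237, 180, 209 and 104 CPM in proBpreB flox/WT and 269, 214, 226 and 256 CPM in proBpreB flox/flox libraries, which overlapped. Among mature libraries it read 14.6, 18.9, 15.3 and 17.2 CPM in flox/WT and 69.2, 88.8, 69.0 and 65.6 CPM in flox/flox libraries, which did not. The log2 difference was 1.74 (SE 0.24, edgeR adjusted p = 4.38e-05). Myb, a progenitor transcription factor, averaged 18.3 and 32.6 CPM in mature flox/WT and flox/flox cells (difference 1.02, SE 0.22). Rag2 averaged 1.16 and 3.00 CPM there. Its difference of 1.64 lost the call in 9 of 31 alternative settings, with adjusted p-values up to 0.0837 and 0.0778 with the mouse as a random block in limma-voom.

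The share of its proBpreB level that a progenitor gene held in mature libraries was not the same for all of them. In mature flox/flox libraries Rag1 stood at 2.33% of its proBpreB level and Dntt, the terminal transferase, at 1.91%. In flox/WT libraries these shares were 1.98% and 2.04%. Igll1 and Vpreb1, the surrogate light chain, went from 1.49% and 2.11% in flox/WT to 3.88% and 3.53% in flox/flox libraries. Neither difference of genotype effects was called (edgeR adjusted p = 0.129 for Igll1 and 0.5 for Vpreb1). Lef1 went from 9.05% to 30.3%. The summed level of the whole list overlapped between genotypes in mature cells, 855 to 1150 CPM in flox/WT and 1020 to 1090 CPM in flox/flox libraries.

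Genes of the mature B cell differed mostly through proBpreB cells, where 12 of 22 fell and 2 rose. In mature cells 4 fell and none rose. Over all tested genes, 2.75% fell and 3.38% rose in proBpreB cells, and 6.62% fell in mature cells. The difference was called higher for 5 of the 22 (Ms4a1, Fcer2a, Cd40, Klf2 and Ccr7) and lower for 2, among them Ltb, with a median of 0.28. It was called higher for 2.27% and lower for 0.786% of all tested genes. Ms4a1, which encodes CD20 (chromosome 19, 11249679 to 11266149), read 159, 102, 134 and 176 CPM in proBpreB flox/WT and 60.5, 30.3, 47.5 and 28.1 CPM in proBpreB flox/flox libraries. In mature cells it read 2580, 2180, 2560 and 2130 CPM in flox/WT and 2030, 1640, 1880 and 1700 CPM in flox/flox libraries. The flox/flox libraries were the lower ones at both stages without overlap, but the mature effect of -0.38 was not called and the proBpreB effect was -1.78 (difference 1.40, SE 0.25, edgeR adjusted p = 0.00148).

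Fcer2a fell from 12.8 to 5.26 CPM in proBpreB cells and stood at 1740 and 1660 CPM in mature cells (difference 1.20). The costimulatory receptor gene Cd40 fell from 24.6 to 11.3 CPM in proBpreB cells, with 169 and 151 CPM in mature cells (0.96). Cd2, an adhesion receptor shared by T and B cells and listed here among T cell markers, fell from 92.1 ± 17.0 to 33.2 ± 3.89 CPM in proBpreB cells and measured 290 ± 32.2 and 274 ± 31.2 CPM in mature cells (1.39, SE 0.17, edgeR adjusted p = 5.84e-06). No other of 9 tested T cell markers was called in the difference. Klf2, a factor of lymphocyte quiescence and homing, and Ccr7 had differences of 0.85 and 0.79. The call of Klf2 was lost without flox/WT mouse 4 (adjusted p = 0.0534), and that of Ccr7 without flox/flox mouse 4 (0.0565) or flox/WT mouse 4 (0.0625). The summed level of the 22 mature genes was 2290 to 2600 CPM in proBpreB flox/flox and 2840 to 3560 CPM in proBpreB flox/WT libraries. It was also lower in mature flox/flox libraries, at 16000 to 17200 CPM, than in mature flox/WT libraries, at 18600 to 19200 CPM. The part of a different mix of cells in either sort was not tested.

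Ltb, which encodes lymphotoxin beta, rose in proBpreB cells from 45.4 ± 5.56 to 97.0 ± 19.7 CPM and was not called in mature cells, at 1050 ± 47.6 and 1180 ± 163 CPM (difference -0.93, SE 0.19). None of 11 genes of MHC class II presentation and none of 25 of B cell receptor signalling was called in the difference, with medians of -0.24 and -0.08. Of all tested genes, 3.06% were called. Within the stages, 4 of the 11 MHC class II genes fell in proBpreB and 9 in mature cells. In the receptor list 9 fell in proBpreB and 10 in mature cells, with 2.75% and 6.62% of all tested genes falling there.

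B lineage transcription factors showed 3 higher (Tcf12, Pou2af1 and, as above, Klf2) and 1 lower call (Bcl11a) among 23, with a median of 0.26. Among all tested genes, 2.27% were called higher and 0.786% lower. Tcf12, the E protein HEB, fell from 253 ± 38.9 to 149 ± 14.1 CPM in proBpreB cells and averaged 53.8 ± 5.30 and 65.6 ± 4.37 CPM in mature cells (difference 1.05, SE 0.17). Pou2af1, the coactivator OBF-1, rose from 793 ± 62.8 to 1150 ± 113 CPM in mature cells and was not called in proBpreB cells (0.74, SE 0.15). Bcl11a had a difference of -0.74, lost without flox/flox mouse 1 (adjusted p = 0.0754) or flox/WT mouse 2 (0.0565).

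**Figure D3:**
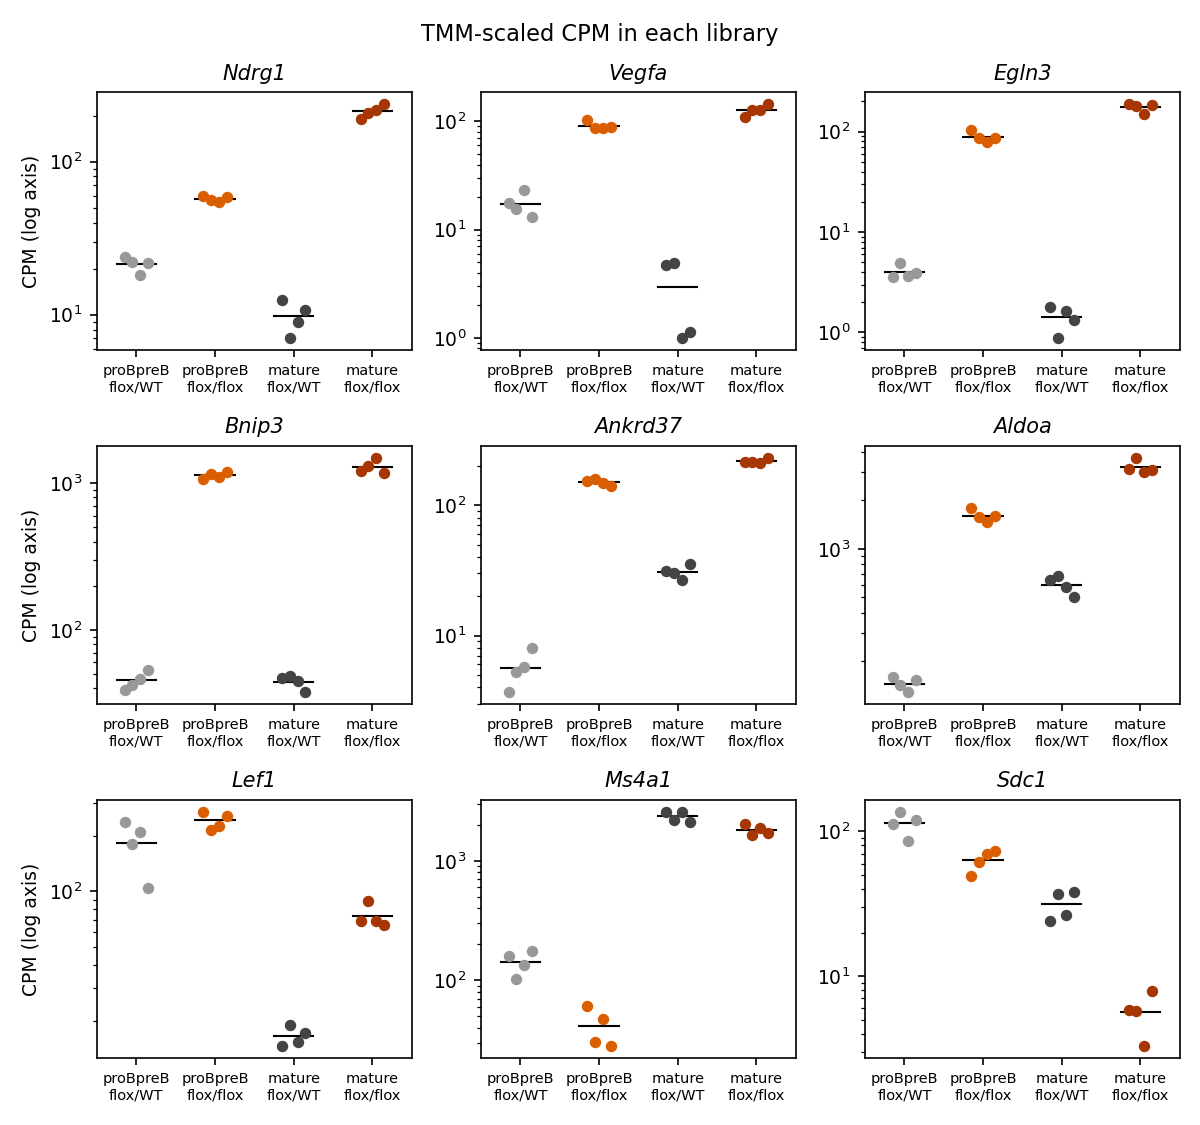
TMM-scaled CPM on log axes, 1 point per library and 4 libraries per group, with bars at the group means, for 9 genes. Ndrg1, Vegfa and Egln3 are lowest in mature flox/WT and highest in mature flox/flox libraries, Bnip3 is alike at both stages, Ankrd37 and Aldoa start higher in mature controls, Lef1 is raised in mature flox/flox cells, Ms4a1 is reduced in proBpreB flox/flox cells, and Sdc1 is lowest in mature flox/flox cells.

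The largest lower differences included genes that are switched on with maturity in the controls and less so in flox/flox mice. Il5ra, the interleukin-5 receptor alpha chain, read 2.94, 2.39, 4.05 and 4.31 CPM in proBpreB flox/WT and 1.5, 3.10, 3.79 and 3.39 CPM in proBpreB flox/flox libraries, which overlapped. The mature values were 46.2, 40.9, 40.2 and 44.1 CPM in flox/WT and 8.81, 4.30, 12.0 and 14.9 CPM in flox/flox libraries, which did not. The log2 difference was -1.89 (SE 0.38, edgeR adjusted p = 0.0034). Fcgrt, the neonatal Fc receptor that recycles IgG, averaged 67.9 and 32.7 CPM in mature flox/WT and flox/flox cells (difference -1.55), and Rftn2, a lipid raft protein, 35.2 and 17.6 CPM (-1.42). Both averaged under 12 CPM in proBpreB cells of either genotype.

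Sdc1, which encodes the plasma cell marker CD138 and is also present on early B cells (chromosome 12, 8771396 to 8793716), fell at both stages. It read 113, 137, 86.1 and 120 CPM in proBpreB flox/WT and 49.5, 61.3, 69.9 and 73.3 CPM in proBpreB flox/flox libraries, then 24.1, 36.7, 26.6 and 38.0 CPM and 5.83, 5.70, 3.28 and 7.82 CPM in mature cells. All 4 groups were separate. The flox/flox level was 55.8% of the flox/WT level in proBpreB and 18.0% in mature cells (log2 difference -1.64, SE 0.31, edgeR adjusted p = 0.00195). No other of 7 tested plasma cell markers was called.

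Mt1, a metal-binding metallothionein (chromosome 8, 94178883 to 94180327), rose in proBpreB cells. It read 5.06, 4.85, 5.25 and 3.42 CPM in flox/WT and 30.8, 39.1, 33.8 and 49.4 CPM in flox/flox proBpreB libraries. Mature libraries read 3.14, 7.67, 2.86 and 5.52 CPM in flox/WT and 7.38, 11.7, 8.24 and 6.97 CPM in flox/flox libraries, which overlapped. The log2 difference was -2.20 (SE 0.46, edgeR adjusted p = 0.00466). Bend5, a BEN-domain protein, rose from 6.19 to 17.4 CPM in proBpreB cells and averaged 72.1 and 60.7 CPM in mature cells (-1.75), and Angel1 rose from 2.82 to 5.31 CPM, with 29.6 and 20.7 CPM in mature cells (-1.43).

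Slfn5, Sidt1, Pglyrp2 and Nek8 completed the 12 largest lower differences, from -2.10 to -1.39, and fell in mature cells. Slfn5 lost its call without flox/WT mice 2, 3 or 4 (edgeR adjusted p = 0.0549, 0.0799 and 0.0545) or flox/flox mouse 2 (0.0904). Sidt1 lost it without flox/flox mouse 2 (0.0679) or 3 (0.106), flox/WT mouse 4 (0.0881) or proBpreB flox/flox replicate 3 (0.066). Pglyrp2 lost it in 10 and Nek8 in 7 of 31 settings, with adjusted p-values up to 0.129 and 0.0702.

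Genes that moved in opposite directions at the 2 stages formed a group of 16, all of which rose in mature and fell in proBpreB cells. None fell in mature and rose in proBpreB cells. Tmem26, a membrane protein (chromosome 10, 68723746 to 68782655), read 13.1, 13.7, 13.5 and 17.5 CPM in proBpreB flox/WT and 5.16, 9.29, 9.26 and 6.51 CPM in proBpreB flox/flox libraries. At the mature stage it read 9.29, 10.4, 17.8 and 10.7 CPM in flox/WT and 38.6, 27.6, 35.8 and 32.6 CPM in flox/flox libraries. The genotypes were separate in both populations, with the order turned round. The effects were -0.93 and 1.49, and the difference 2.42 (SE 0.26, edgeR adjusted p = 1.09e-06).

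Dusp5, a phosphatase that restrains nuclear ERK, fell from 50.2 ± 8.33 to 31.0 ± 3.12 CPM in proBpreB and rose from 6.05 ± 2.48 to 14.2 ± 3.10 CPM in mature cells. Klhl14, an adaptor of ubiquitin ligases that acts in B cells, fell from 30.6 ± 8.35 to 17.1 ± 3.34 CPM and rose from 30.6 ± 3.40 to 48.8 ± 0.839 CPM. Cd36, a scavenger receptor for lipids, fell from 23.1 ± 7.53 to 11.0 ± 3.13 CPM and rose from 36.5 ± 10.8 to 60.9 ± 16.5 CPM. Tifa, an adaptor in NF-kB signalling, fell from 1490 ± 204 to 1090 ± 52.4 CPM and rose from 93.2 ± 14.2 to 130 ± 5.74 CPM.

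Cell cycle genes leaned to higher differences. All 25 mitosis genes had a positive difference, with 52.7% of all tested genes positive, and their median was 0.74, but only Ccnb2, Birc5 and Ccnb1 were called. Of all tested genes, 2.27% were called higher. In mature cells 16 of the 25 rose, with 9.69% of all tested genes rising there, and none fell. In proBpreB cells none was called. Ccnb2, which encodes cyclin B2, read 253, 261, 256 and 240 CPM in proBpreB flox/WT and 223, 226, 225 and 250 CPM in proBpreB flox/flox libraries. In mature cells it read 24.1, 21.8, 14.8 and 14.1 CPM in flox/WT and 37.9, 42.4, 33.3 and 29.2 CPM in flox/flox libraries, a group apart from the controls (difference 1.07, SE 0.21, edgeR adjusted p = 0.00337). Birc5, the survivin gene, had a difference of 0.93. It lost its call without flox/flox mouse 2 (adjusted p = 0.0649) or flox/WT mouse 3 (0.0621) or 4 (0.0544). Ccnb1 lost its call in 16 of 31 settings, with adjusted p-values up to 0.163 and 0.0703 with the mouse as a block.

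Of 27 genes of DNA replication and S phase, 3 were called higher and none lower, with a median of 0.39. The shares over all tested genes were 2.27% higher and 0.786% lower. E2f2, a transcription factor of the cycle, averaged 354 and 292 CPM in proBpreB and 71.3 and 115 CPM in mature flox/WT and flox/flox cells (0.97, SE 0.18). The calls of Rrm2 and Ccne2 were lost in 10 and 11 of 31 settings, with adjusted p-values up to 0.1 and 0.166. Mature flox/WT cells held at most 697 CPM of the 25 mitosis genes together and mature flox/flox cells 714 to 1010 CPM, against 5190 to 7170 and 5760 to 7010 CPM in proBpreB cells. The part of other cycling cells in the mature sort was not tested.

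Apoptosis genes included 1 firm call. Bcl2l1, the anti-apoptotic BCL-XL, measured 205 ± 34.5 and 151 ± 5.71 CPM in proBpreB and 13.3 ± 4.11 and 21.1 ± 4.58 CPM in mature flox/WT and flox/flox cells (difference 1.11, SE 0.24, edgeR adjusted p = 0.00563). Bbc3 and Pmaip1, the pro-apoptotic PUMA and NOXA, had differences of 1.26 and 1.23, which were lost in 20 of 30 and 19 of 31 settings, with adjusted p-values up to 0.220 and 0.209. With the mouse as a block the adjusted p of Pmaip1 was 0.072, and 0.0709 with it as a random block in limma-voom. These 3 were the calls among 16 Bcl2 family genes, and the latter pair the calls among 18 p53 targets. All 3 were higher, as were 2.27% of all tested genes.

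The remaining lists gave few calls or none, with 3.06% of all tested genes called in the difference. A single call in a list of 21 or 22 genes is near that share, so it describes the gene and not the list. No gene of 21 in the tricarboxylic acid cycle and none of 32 nuclear genes of oxidative phosphorylation was called, with medians of -0.06 and 0.03. Srebf2, which drives sterol synthesis, was the 1 call among 22 cholesterol genes: it averaged 98.0 and 93.9 CPM in proBpreB and fell from 306 to 176 CPM in mature cells (difference -0.73, SE 0.16). Herpud1, of the unfolded protein response, had a difference of 0.84, the 1 call among 21. Junb and Jund, of the AP-1 family, were the calls among 21 immediate early and heat shock genes, at 1.10 and 0.89. Junb lost its call without flox/WT mice 2 (adjusted p = 0.0604) or 4 (0.0574) or flox/flox mouse 4 (0.089), and Jund without flox/flox mouse 4 (0.0607) or flox/WT mouse 4 (0.0938). Cd44, an adhesion receptor, rose from 116 to 195 CPM in mature cells (0.89, SE 0.19). It was called among 20 chemokine receptor and adhesion genes, as were Ccr7, given above, and Cd24a at 0.78, which was lost in 5 settings with adjusted p-values up to 0.115.

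Bst2 was the 1 call among 24 interferon response genes, at -0.97, and Bst2 and Pacsin1 (-1.31) were the calls among 10 markers of plasmacytoid dendritic cells. Of all tested genes, 0.786% were called lower. Siglech, the defining marker of those cells, read 218, 227, 246 and 304 CPM in flox/WT and 259, 445, 453 and 294 CPM in flox/flox proBpreB libraries, and averaged 9.46 and 9.37 CPM in mature cells, with a difference of -0.57 (95% interval -2.01 to 0.86). The 10 markers summed to 1950 to 2610 and 2010 to 2680 CPM in proBpreB and 2180 to 2790 and 2610 to 3170 CPM in mature flox/flox and flox/WT libraries, and none was at 0. Bst2 lost its call in 10 and Pacsin1 in 16 of 31 settings, with adjusted p-values up to 0.151 and 0.158. None of 10 natural killer, 14 neutrophil and monocyte, 13 erythroid or 8 stroma and endothelium markers was called. Natural killer genes summed to 65.7 to 81.0 CPM in mature flox/flox and 36.0 to 46.3 CPM in mature flox/WT libraries. In mature cells 3 of the 10 rose and none fell, with 9.69% of all tested genes rising there. The part of natural killer cells in the results was not tested.

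**Figure D4:**
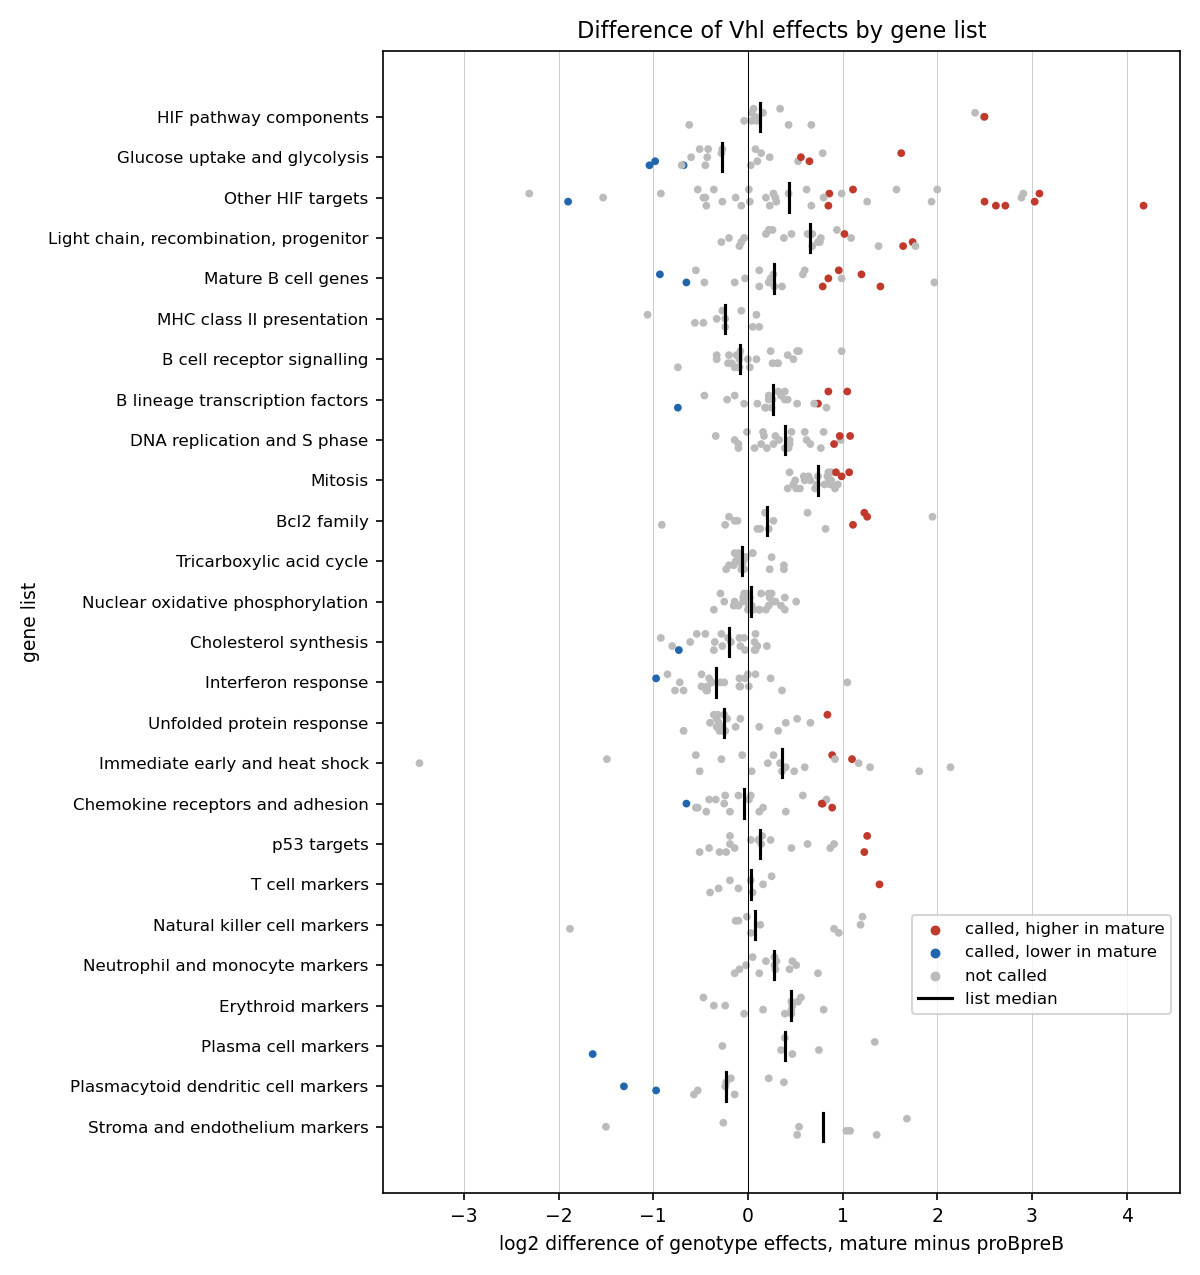
Each point is a gene of 1 of 26 lists, placed by its log2 difference of genotype effects (mature minus proBpreB). Red and blue points are called higher and lower, grey ones are not called, and black bars mark list medians, which run from -0.34 for the interferon response to 0.79 for stroma and endothelium markers. Some genes are on more than 1 list.

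The immature libraries, which the difference does not use but which come from the same mice, were read beside it. The immature genotype effect lay between the proBpreB and the mature effect for 195 of the 292 higher genes (66.8%) and 73 of the 101 lower genes (72.3%), against 27.3% of all genes tested. A wide gap between the outer values leaves more room for another value between them, so the shares are a description. For Ndrg1 the effects were 1.41, 2.93 and 4.44 in the order proBpreB, immature, mature, and for Ankrd37 4.73, 4.46 and 2.82. Vegfa, at 5.53, had already reached its mature effect of 5.48 in immature cells. Adm, at 1.33, had not, although its immature flox/flox level of 43.7 CPM was near the mature flox/flox level of 41.1 CPM. Its flox/WT level was 17.4 CPM in immature and 2.77 CPM in mature cells.

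Bhlhe40, Lef1 and the mitosis genes were among those that left that order. Bhlhe40 had effects of 1.65, 0.14 and 2.50 in the order proBpreB, immature, mature. Lef1 had effects of 0.40, -0.68 and 2.15 in that order. The mitosis list had medians of 0.01, -1.79 and 0.73. For Ms4a1 the immature effect of -0.01 was nearer to the mature value of -0.38 than to -1.78 in proBpreB cells.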

How the data were processed

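RNA of sorted B cell populations was measured by sequencing, with libraries made from cells sorted into lysis buffer (SMARTer Universal Low Input RNA Kit, per the labels' protocols). The authors deposited raw counts of 24421 genes by symbol, and only these counts were used. The submitters' processing notes name the build mm10 and, without roles, featureCounts, HISAT2, Trim Galore, DESeq2, FastQC and CASAVA. The sources used here give no versions, annotation or strand setting, so overlapping and antisense genes cannot be told apart. Columns were matched to samples by the number that opens each title.

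Counts of all 24 libraries were fitted in edgeR 4.0.16 under R 4.3.3 (TMM, filterByExpr on 6 groups, robust quasi-likelihood, 18 residual degrees of freedom, 12850 genes). P-values were adjusted by Benjamini-Hochberg within each of 5 comparisons at 0.05: the difference, both genotype effects and both stage steps. All share libraries. Values are TMM-scaled CPM, and per-mouse stage steps are log2(CPM + 0.5). Exact counting intervals of ratios and floors (3 counts) cover counting error only, since PCR copies were not marked. Intervals of the difference rest on the SE of the fit. These intervals and the p-values of the fit measure the spread between libraries within the 6 groups, with no term for the mouse. The exact permutation test uses 1 value for each of these 8 mice. Libraries of a group differed by a chi-square of at least 5.82 per degree of freedom, so none was treated as a repeat.

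Named genes were Vhl, the 12 largest called differences in each direction (mean log2 CPM of at least 2, per-mouse steps without overlap, no clone symbols), up to 4 called members of each of 26 lists, 8 genes of opposite effects and 6 shared risers. Results for 2 of these genes are not reported here. The members and lists were chosen with earlier results of these data known. Both populations of a mouse come from the same animal, and their deviations from the group means correlated at 0.103 to 0.382 over 5000 genes, above 0.1 in 8 of 8 mice. Alternatives were RLE size factors, no filter, DESeq2 1.42.0, a fit of the compared groups alone, a filter of 10 CPM in 4 libraries, limma-voom (limma 3.58.1) with the mouse as a random block, the mouse as a fixed block, a pseudocount of 2 CPM, and each library and mouse left out. The scripts were tested on simulated data. Positions and promoters came from RefSeq tables of GRCm38.p6, in which 505 of 508 genes shown were matched.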

Additional observations from a re-analysis of the deposited data

Results flagged for a closer look

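In 4 of 50 sets of 4 mice that were examined, 1 mouse stood far from the other 3 in its step from proBpreB to mature cells, on the log2(CPM + 0.5) scale. Chance marks about 1 in 20 such sets. Adgrl2 gave 0.95 in flox/flox mouse 4, with 0.21 to 0.32 in the others. Ndrg1 gave -1.59 in flox/WT mouse 2, with -1.01 to -0.91 in the others. Sorcs2 gave -4.61 in flox/WT mouse 2, with -3.01 to -2.72 in the others. Nek8 gave -0.49 in flox/flox mouse 3, with -1.04 to -1.01 in the others.

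For 16 genes the genotype effect had opposite called signs in the 2 populations and the edgeR test of the difference itself passed. The naming rule chose 9 of them. The log2 differences were 2.42 for Tmem26, 1.92 for Dusp5, 1.83 for Myadm, 1.80 for Cd36, 1.52 for Klhl14, 1.33 for Homer1, 1.02 for Il12a, 0.93 for Tifa and 0.84 for Herpud1. All 9 fell in proBpreB and rose in mature cells.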

How the results depend on the processing

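No called gene chosen by the naming rule reversed its direction in up to 31 settings. Of 66 such genes, 44 kept the call throughout and 22 lost it at least once. The difference gave 393 genes (292 higher, 101 lower), and it gave 599 (449 higher) with DESeq2. With limma-voom and the mouse as a random block it gave 496, of which 166 were lower, and higher genes made up 66.5% there against 74.3%. With the mouse as a fixed replicate block it gave 484, and the block moved no count by over 1.5 times. Among the named genes the fixed block ended the calls of Ccnb1 (adjusted p = 0.0703) and Pmaip1 (0.072), and the random block in limma-voom those of Lrrn3 (0.063), Rag2 (0.0778) and Pmaip1 (0.0709). Neither block ended another named call. The mature genotype effect gave 2096 genes, and 1296 when only its groups were fitted. Leaving out 1 library or 1 mouse with all its libraries gave 254 to 445 genes for the difference (195 to 322 higher, 55 to 129 lower), 1482 to 2393 for the mature and 466 to 1015 for the proBpreB effect. The stage steps gave 6779 to 7704 genes in flox/WT and 6718 to 7797 in flox/flox mice. The proBpreB effect gave 788 genes, but 493, 504 and 466 without proBpreB flox/WT replicate 4, flox/flox mouse 4 and flox/WT mouse 4. The causes were not tested. Single genes apart from Vhl were chosen for mouse steps without overlap, which fixes their exact permutation p, so that p says nothing about stability. The protocadherin count as 1 gene was chosen after seeing the data. Genes under a few CPM in flox/WT libraries, such as Mgarp, Vldlr and Plod2, are limited by depth.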

Other observations

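Ribosomal proteins leaned the other way from most called genes, a group chosen after its values were seen and therefore given without a test. Of 82 tested genes of cytosolic ribosomal proteins, 78 had a negative difference, 8 were called lower and none higher, with 0.786% of all genes called lower. Their median difference was -0.38. In mature cells 55 fell and none rose, and in proBpreB cells 1 fell and none rose. Over all tested genes, 6.62% fell in mature and 2.75% in proBpreB cells. The median effect was -0.51 in mature, 0 in immature and -0.12 in proBpreB cells. Rpl4, a protein of the large subunit, read 786, 742, 692 and 694 CPM in proBpreB flox/WT and 816, 757, 763 and 842 CPM in proBpreB flox/flox libraries. In mature cells it read 1020, 1140, 1050 and 1090 CPM in flox/WT and 670, 628, 517 and 691 CPM in flox/flox libraries, which did not overlap (difference -0.90, SE 0.14, edgeR adjusted p = 0.000325). Rpl14 and Rpl6 had differences of -0.70 and -0.64. Many ribosomal protein genes have near-identical processed copies in the genome, so how reads were divided among them is uncertain.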
